A study of Danio rerio with 6 samples.

Results

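The cyp46a1 genes of zebrafish encode cholesterol 24-hydroxylases, cytochrome P450 enzymes of the endoplasmic reticulum. They were followed here in whole kidney marrow, where adult fish make their blood cells, from 3 il7 mutant and 3 control libraries. The mutant fish carry an internal deletion of exons 2-4 of il7, the gene of the cytokine interleukin 7, and the controls are wild type (wt). All fish had the TLEK background, and the marrow cells were unfractionated. The labels give neither the age of the fish nor the number of fish per library, so a p-value here reflects the spread among the libraries alone, and that spread may be technical. The members are cyp46a1.2 (ENSDARG00000004262), chosen by its normalized counts, which were well below the control level in every mutant library with a small spread, and all other genes whose symbol starts with cyp46a1. The name table gives 5 such genes, and 4 of them have a row among the 32267 features: cyp46a1.1 (ENSDARG00000012137), cyp46a1.2, cyp46a1.3 (ENSDARG00000089177) and cyp46a1.5 (ENSDARG00000093477). The fifth, cyp46a1.4, was not analysed here.

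Cholesterol 24-hydroxylase adds a hydroxyl group to the side chain of cholesterol. In mammals the enzyme is known mostly from neurons, where the product, 24S-hydroxycholesterol, crosses membranes more readily than cholesterol and carries excess sterol out of the brain. In mammals this oxysterol is also a ligand of the liver X receptors, nuclear receptors that turn on cholesterol export, and it restrains the SREBP2 pathway that makes cholesterol. The sources used here do not give the role of each zebrafish copy in marrow.

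The libraries held 34496353 to 46120889 reads assigned to genes. The targeted gene il7 had 14, 18 and 4 reads in the mutant libraries, against 114, 61 and 52 reads in the controls. Marrow markers were present in all libraries, such as the globin hbaa1 at 103393 to 265616 normalized counts in mutants and 43576 to 187569 in controls, and the neutrophil lysozyme lyz at 94734 to 180516 in mutants and 91519 to 136722 in controls. Transcripts of other tissues were present too. The egg coat gene zp3b stood at 31205 normalized counts in il7 mutant 2 and 55927 in control 1, while the other 4 libraries held 52.1 to 68.7. These 2 libraries are called oocyte-rich here, and the log2 differences of the family are also given without them. In unsorted tissue, fewer cells of a type and less RNA per cell cannot be told apart.

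In cyp46a1.2 every mutant library lay far below every control library. The normalized counts, which are reads divided by a size factor of the library, were 525, 380 and 541 in il7 mutants 1, 2 and 3, against 1653, 1892 and 2086 in controls 1, 2 and 3. The groups did not overlap, as in 4.44% of all genes fitted with lower mutants, and the lowest control was 3.06 times the highest mutant. The mean was 482 ± 88.6 in mutants and 1877 ± 217 in controls (SD, n = 3 each), which is 25.7% of the control mean. The single mutant libraries stood at 28.0%, 20.2% and 28.8% of the control mean. Behind these values were 445, 383 and 541 reads in the mutant libraries and 2098, 1872 and 1880 reads in the controls. On the log2(normalized count + 1) scale the difference of mutant minus control was −1.97 (SE 0.23), and the authors' deposited table gives an unshrunken log2 fold change of −1.96 and a shrunken one of −1.79. This contrast chose the gene, so no test of it is given. For orientation, 67 genes were lower at an adjusted p under 0.05 in the authors' deposited table, 0.312% of the 21481 with an adjusted p there.

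**Figure D1:**
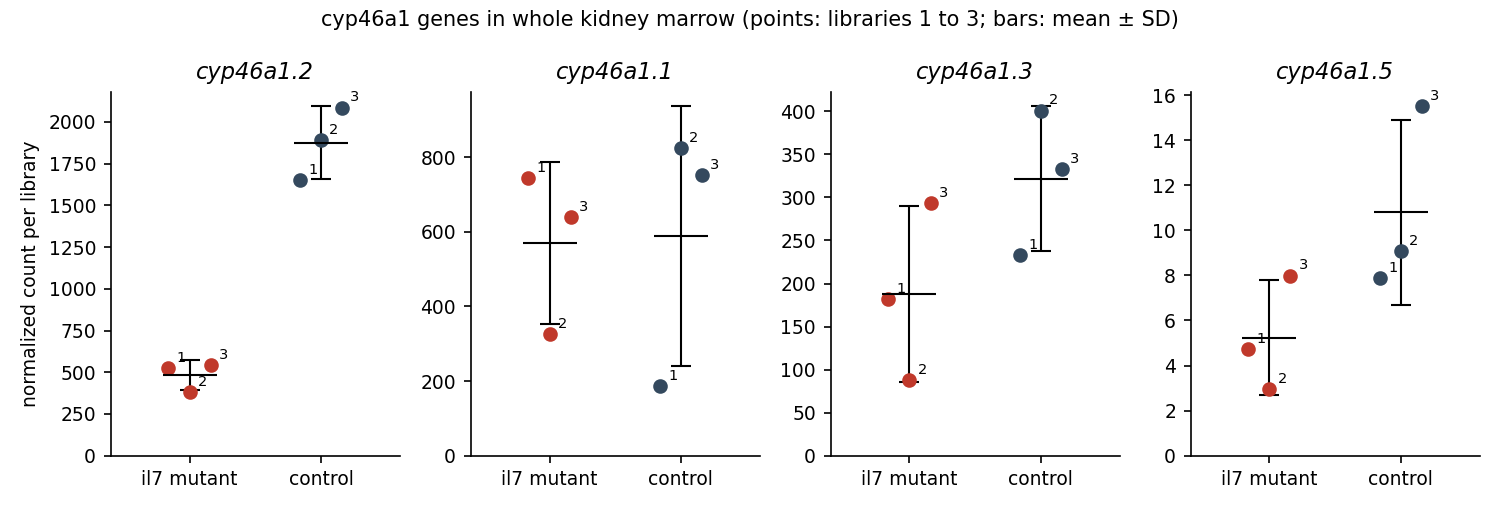
Normalized counts of the 4 measured cyp46a1 genes in each library, with mutants in red to the left of controls in dark blue, the library number beside each point, and the mean ± SD of each group in black. In cyp46a1.2 the mutant libraries sit between 380 and 541 and the controls between 1653 and 2086, while the groups of cyp46a1.1 and cyp46a1.3 overlap.

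The small spread of cyp46a1.2 within each group was also part of its choice, so the values here describe it only. The highest mutant library was 1.42 times the lowest, and the highest control was 1.26 times the lowest. The SD of the log2 values was 0.28 in mutants and 0.17 in controls. The choice also used the values of every mutant library, so differences of cyp46a1.2 over part of the libraries describe it only and test nothing. Without the oocyte-rich libraries, the mean of cyp46a1.2 in the other 4 was 533 normalized counts in mutants and 1989 in controls. That is a ratio of 0.268 and a log2 difference of −1.90. Between the oocyte-rich pair, il7 mutant 2 held 380 and control 1 held 1653, a ratio of 0.230. Leaving out 1 library at a time gave log2 differences of cyp46a1.2 from −2.06 to −1.81.

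The second copy by mean normalized count over all libraries, cyp46a1.1, had no detectable difference between the groups. Its normalized counts were 743, 325 and 639 in il7 mutants 1, 2 and 3, against 187, 825 and 752 in controls 1, 2 and 3. The groups overlapped fully, with the lowest and the highest value both among the controls. The mean was 569 ± 217 in mutants and 588 ± 349 in controls (SD, n = 3 each). The limma log2 difference was 0.14 (SE 0.65, 95% confidence interval −1.42 to 1.69), with an adjusted p of 1.00 across the 20782 genes fitted. A two-sided exact permutation test of the 3 against 3 values gave p = 1.00, where 0.1 is the smallest it can give. That interval leaves room for differences of more than 2-fold either way, and the sign turned to −0.55 without control 1. The cyp46a1.1 values were lowest in the oocyte-rich libraries, at 187 and 325, while the other 4 libraries held 639 to 825. Within those 4 libraries the mean was 691 in mutants and 788 in controls, a log2 difference of −0.19. The part of oocyte transcripts in this split was not tested.

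In cyp46a1.3 the mutant mean was lower, but the groups overlapped. Its normalized counts were 182, 88.2 and 293 in il7 mutants 1, 2 and 3, against 233, 401 and 333 in controls 1, 2 and 3. Only il7 mutant 3 lay above any control, namely control 1. The mean was 188 ± 102 in mutants and 322 ± 84.5 in controls (SD, n = 3 each), or 58.2% of the control mean. The limma log2 difference was −0.91 (SE 0.50, 95% confidence interval −2.10 to 0.29), with an adjusted p of 1.00, and the two-sided exact permutation test gave p = 0.2. Without il7 mutant 2 the limma difference was −0.45, with an adjusted p of 0.917, and without both oocyte-rich libraries it was −0.66.

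The copy cyp46a1.5 was hardly read. It had 4.72, 2.97 and 7.99 normalized counts in il7 mutants 1, 2 and 3, against 7.88, 9.09 and 15.5 in controls 1, 2 and 3. These stand for 4, 3 and 8 reads in the mutants and 10, 9 and 14 reads in the controls. Il7 mutant 3 and control 1 were nearly level, so the groups overlapped. The mean over the 6 libraries was 8.03, under the minimum of 10 for the fit across genes, so cyp46a1.5 has no limma test. Its mean was 5.23 ± 2.55 in mutants and 10.8 ± 4.11 in controls (SD, n = 3 each), a log2 difference of −0.95, and the two-sided exact permutation test gave p = 0.2. Without both oocyte-rich libraries the log2 difference was −0.85.

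Of the 4 measured copies, 3 passed the filter on low values. Of these, limma called none of the 2 copies that were chosen by symbol, cyp46a1.1 and cyp46a1.3. Across the genome limma called 0 of 20782 genes at an adjusted p under 0.05 (0.00%), and 723 genes (3.48%) at an unadjusted p under 0.05, where cyp46a1.1 had 0.840 and cyp46a1.3 had 0.114. In the authors' deposited table, where 112 of 21481 genes (0.521%) had an adjusted p under 0.05, the other copies had unshrunken log2 fold changes of −0.05 for cyp46a1.1, −0.78 for cyp46a1.3 and −1.04 for cyp46a1.5, each with an adjusted p of 1.00.

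The summed signal of the 4 measured copies, without cyp46a1.4, and the part of it that came from cyp46a1.2 were lower in the mutants. Both quantities contain the cyp46a1.2 values that chose the gene, so they are a description and no separate result. The 4 copies together held 1454, 796 and 1481 normalized counts in il7 mutants 1, 2 and 3, against 2081, 3126 and 3186 in controls 1, 2 and 3. The mean of this sum was 1244 ± 388 in mutants and 2798 ± 621 in controls (SD, n = 3 each). The copy cyp46a1.2 supplied 36.1%, 47.7% and 36.5% of it in the mutants, against 79.4%, 60.5% and 65.5% in the controls. The separation of these shares rests on cyp46a1.2, which was chosen for its difference. It also depends on the other 3 copies, which were chosen by symbol. The values are not scaled to gene length, so the shares are shares of reads, and they do not rank the copies by transcript number. The sum of the other 3 copies was 929, 416 and 940 in il7 mutants 1, 2 and 3, against 429, 1235 and 1101 in controls 1, 2 and 3. These sums overlapped, with a two-sided exact permutation p of 0.5. The share of cyp46a1.1 was 45.0% ± 5.37 in mutants and 19.7% ± 9.33 in controls (SD, n = 3 each), a share that moves whenever cyp46a1.2 does.

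**Figure D2:**
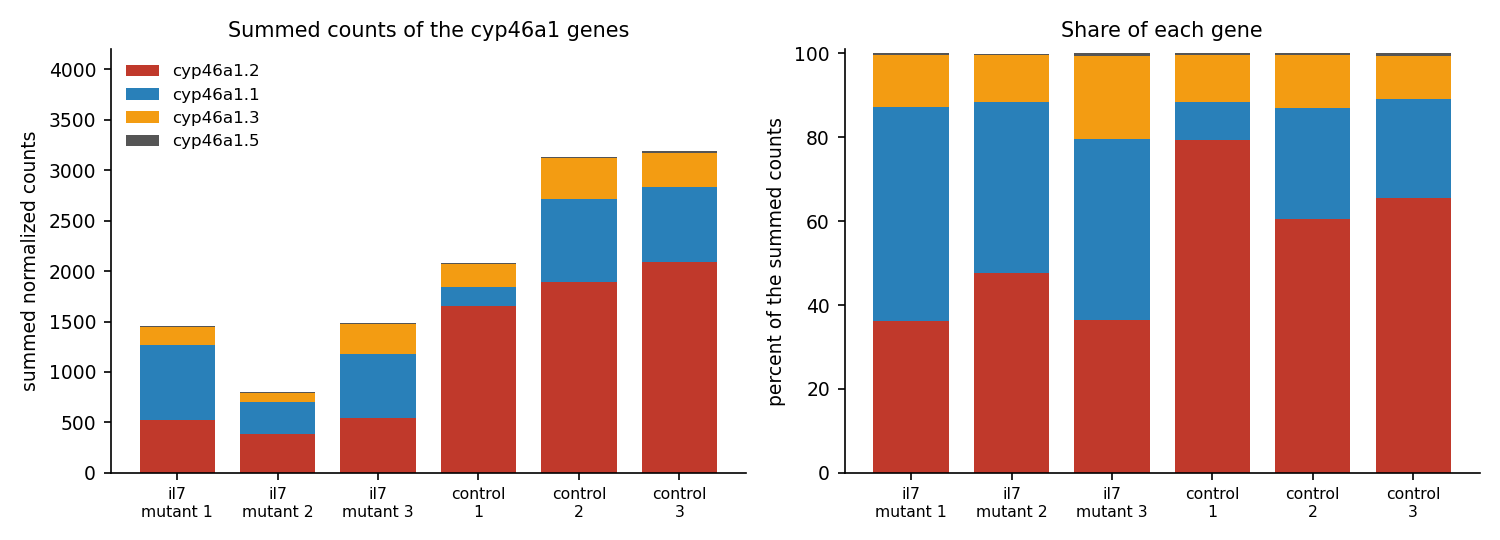
Left, the summed normalized counts of the 4 cyp46a1 genes in each library, stacked by gene. Right, the same as percent of the sum; cyp46a1.2 (red) makes up 36.1% to 47.7% in the 3 mutant libraries and 60.5% to 79.4% in the 3 controls.

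The copies lie close together on 1 chromosome. In RefSeq's annotation of the assembly GRCz12tu, which is not the build of the authors, their order is cyp46a1.1, cyp46a1.5, then ccdc85cb and a transfer RNA gene, then cyp46a1.2, cyp46a1.4 and cyp46a1.3. Reads that match several similar copies could be split or dropped by the authors' counting. Its settings are not given in the sources used, and counts per copy are uncertain to that degree. Among the 5 annotated genes on each side of each copy, 12 were no family members, 6 of these matched a row and 4 were fitted. None of the 4 was called by limma, and none had groups that do not overlap, which was the case for 7.94% of all genes fitted. Their log2 differences ran from −0.23 to 0.15. The widest were ccnk, a cyclin that partners transcription kinases, at −0.23 (SE 0.37), and si:dkey-60a16.1 at 0.15 (SE 0.26). The splicing factor gene snw1, beyond cyp46a1.3, stood at 2947 ± 191 normalized counts in mutants and 2717 ± 186 in controls (SD, n = 3 each).

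**Figure D3:**
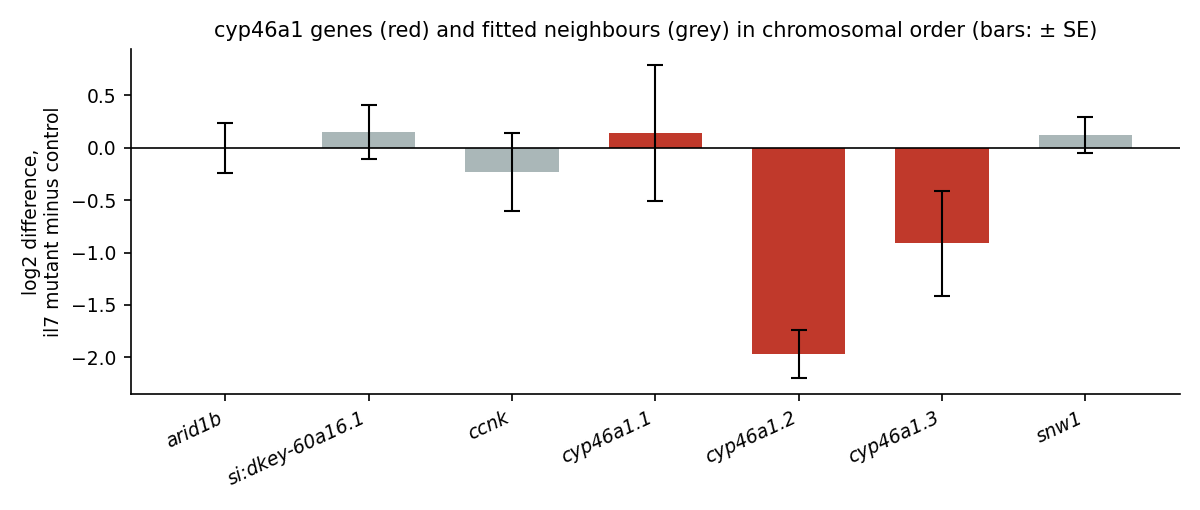
Log2 difference of il7 mutant minus control, with its SE, for the fitted cyp46a1 genes (red) and the fitted genes around them (grey), in chromosomal order but not to scale; genes with no fitted value are left out. The bar of cyp46a1.2, which was chosen for its difference, reaches −1.97, and the grey bars lie between −0.23 and 0.15.

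Other genes followed the same pattern over the libraries. Over log2 values of the 6 libraries, 164 fitted genes had a Pearson r of at least 0.9 with cyp46a1.2 and 4 had one of at least 0.99. These r values describe 6 points that share their libraries, and the group difference that chose cyp46a1.2 dominates them. The named gene with the most similar pattern was gdpd3a, of the glycerophosphodiester phosphodiesterase family (r = 0.995). It had 518, 429 and 514 normalized counts in il7 mutants 1, 2 and 3, against 1073, 1057 and 1296 in controls 1, 2 and 3. Next came sla2b, of the Src-like adaptor family (r = 0.993), at 154 ± 27.7 in mutants and 341 ± 18.4 in controls (SD, n = 3 each). The arrestin domain gene ARRDC2 (r = 0.991) stood at 4886 ± 254 in mutants and 8542 ± 774 in controls (SD, n = 3 each). The beta adrenergic receptor gene ADRB1 (r = 0.989) was far lower in reads, at 20.3 ± 3.57 in mutants and 52.2 ± 4.88 in controls (SD, n = 3 each). PTER, a gene related to phosphotriesterases (r = 0.988), matched cyp46a1.2 also in size, at 117 ± 38.1 in mutants and 446 ± 36.0 in controls (SD, n = 3 each) and a log2 difference of −1.97. The protein kinase A gene prkacbb (r = 0.987) had the widest gap of these genes, at 10.6 ± 7.96 in mutants and 471 ± 235 in controls (SD, n = 3 each).

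**Figure D4:**
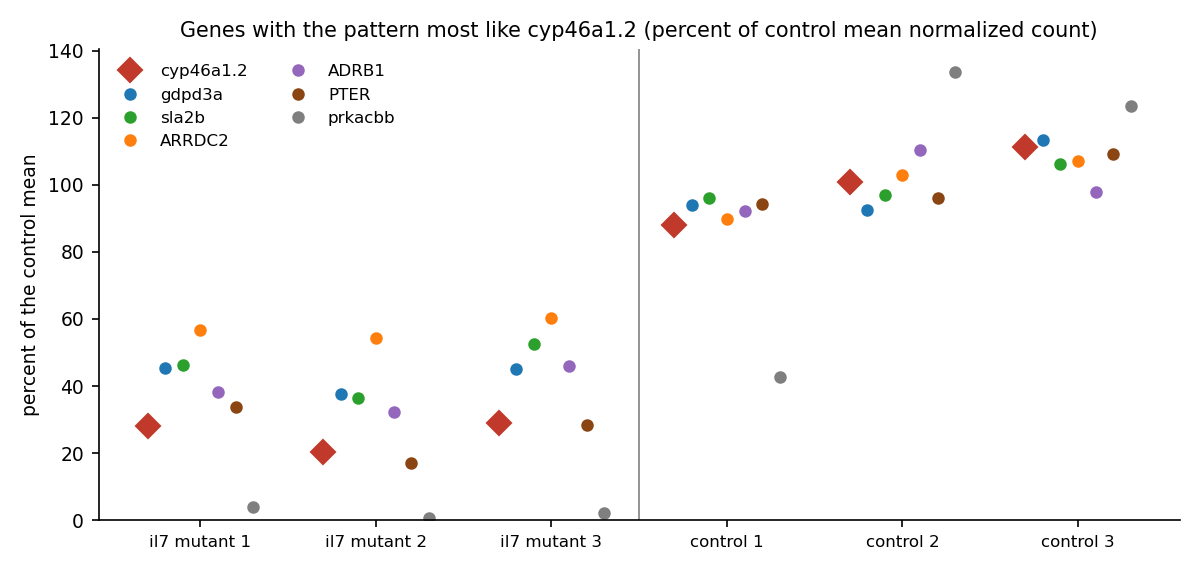
Normalized counts as percent of each gene's own control mean in each library, for cyp46a1.2 (red diamonds) and the 6 named genes with the highest Pearson r to it. In the 3 mutant libraries cyp46a1.2 sits at 20.2% to 28.8%, with ARRDC2 above it and prkacbb below it.

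With the group means taken out, the likeness within groups does not contain the difference between the groups. The small spread within groups was part of the choice of cyp46a1.2, so these values are a description too. The deviations of each group cancel out, so they are not free of each other. The genes named were picked as the highest among all genes fitted, so r values near 1 carry little weight. By that measure, over 6 deviations, the named genes most like cyp46a1.2 were PRKAR2A, a regulatory subunit of protein kinase A (r = 1.00), the metalloproteinase gene MMP28 (r = 0.999) and NKAPL (r = 0.998). Their group differences were unlike each other, with log2 differences of 0.34 for PRKAR2A, −2.54 for MMP28 and −0.05 for NKAPL. Of the family, cyp46a1.3 had r = 0.89 and cyp46a1.1 r = 0.79 with cyp46a1.2 within groups, against 0.75 and 0.06 over the 6 libraries as they stand. In all 4 measured copies the lowest mutant library was il7 mutant 2 and the lowest control was control 1, the oocyte-rich pair.

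The genes around cyp46a1.2 in sterol metabolism were read from lists chosen with earlier results of these data known. No list held a gene that limma called, where the genome as a whole held 0 (0.00%). In the cholesterol synthesis list 23 of 25 fitted genes had a positive log2 difference and 2 a negative one, where 54.1% of all genes fitted were negative. The median of the list was 0.61, against −0.04 over all genes fitted. At an unadjusted p under 0.05 there were 2 higher and 0 lower members, where the genome held 1.36% higher and 2.12% lower.

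These 2 genes were srebf2 and LSS. The first encodes the transcription factor that drives cholesterol synthesis, and had 5882, 4124 and 5125 normalized counts in il7 mutants 1, 2 and 3, against 2644, 3360 and 3931 in controls 1, 2 and 3. The groups of srebf2 did not overlap, as in 3.51% of all genes fitted with higher mutants, and its log2 difference was 0.61 (SE 0.24, limma adjusted p = 1.00). The lanosterol synthase gene LSS did not overlap either, at 449, 286 and 1022 in il7 mutants 1, 2 and 3, against 143, 200 and 285 in controls 1, 2 and 3, though il7 mutant 2 and control 3 were nearly level. The early enzyme genes HMGCS1 and IDI1 had log2 differences of 1.38 (SE 0.62) and 0.90 (SE 0.41) with overlapping groups. Among the most highly read members, insig1, whose product holds SREBP proteins back in the endoplasmic reticulum, stood at 6697 ± 6069 in mutants and 1781 ± 1414 in controls (SD, n = 3 each), and the low-density lipoprotein receptor gene ldlrb at 4448 ± 3064 in mutants and 1956 ± 1772 in controls (SD, n = 3 each). In both genes the SD of the mutants was wider than the difference of the means, and the SD of the controls was narrower than it.

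Il7 mutant 3 was high across this list. As a median over its fitted genes, centred on the mean of the libraries, the cholesterol synthesis list stood at 0.37, −0.16 and 1.06 log2 units in il7 mutants 1, 2 and 3, against −0.07, −0.84 and −0.04 in controls 1, 2 and 3. These levels overlapped, since il7 mutant 2 lay below controls 1 and 3. By the same measure the liver and pancreas markers stood at −0.39, 2.37 and 0.63 in mutants, against −1.64, −2.27 and 0.42 in controls, and the kidney tubule markers at 0.35, −0.47 and 0.41 in mutants, against −0.95, 0.35 and 0.26 in controls. The part of such tissue in the sterol genes was not tested.

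**Figure D5:**
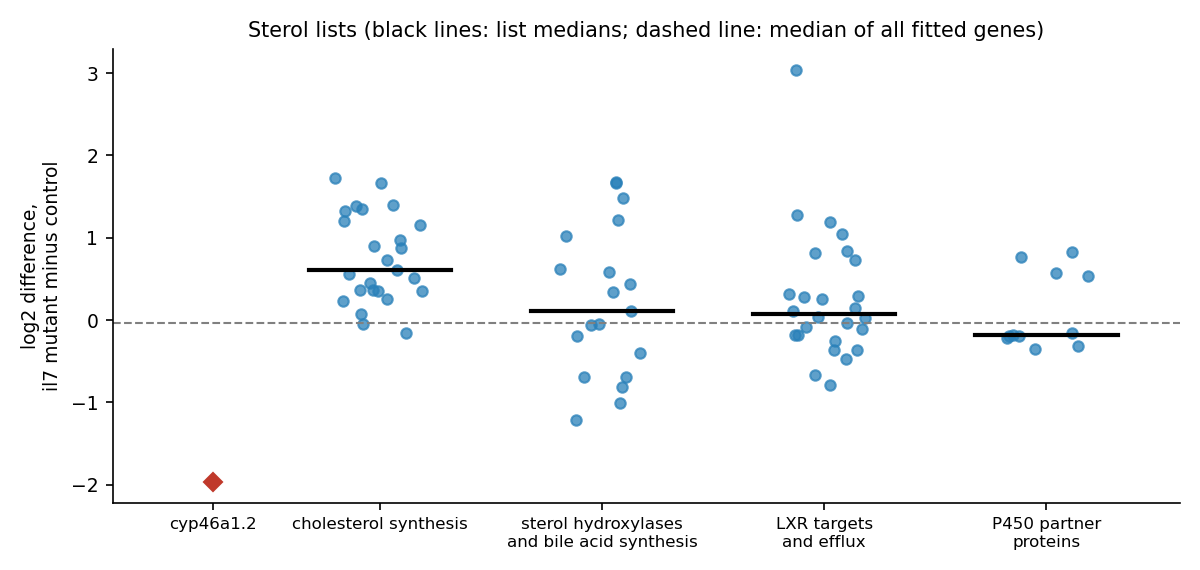
Log2 difference of il7 mutant minus control for each fitted gene of 4 sterol lists (blue points), with list medians as black lines, the median of all fitted genes as a dashed line at −0.04, and cyp46a1.2 as a red diamond at −1.97. The cholesterol synthesis points lie mostly above the dashed line, with a median of 0.61, while the other list medians lie between −0.18 and 0.11.

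Among other sterol hydroxylases and bile acid genes, 10 of 19 fitted genes had a positive and 9 a negative log2 difference, with a median of 0.11. At an unadjusted p under 0.05, 3 were higher and 1 was lower, where the genome held 1.36% higher and 2.12% lower. Groups did not overlap in 2 higher and 0 lower genes of this list, against 3.51% and 4.44% of all genes fitted. One member is cyp39a1, which in mammals encodes a hydroxylase acting on 24-hydroxycholesterol, the product of cholesterol 24-hydroxylase. It had 13, 22.8 and 21.0 normalized counts in il7 mutants 1, 2 and 3, against 4.73, 6.06 and 4.44 in controls 1, 2 and 3. The groups of cyp39a1 did not overlap, but the gene was weakly read, and its log2 difference of 1.68 (SE 0.57) had a limma adjusted p of 1.00. The steroid sulfotransferase gene sult2st1 also had groups that did not overlap, with 12739, 6467 and 22792 in il7 mutants 1, 2 and 3, against 3176, 5062 and 3735 in controls 1, 2 and 3 (log2 difference 1.66, SE 0.47, limma adjusted p = 1.00). Its relative sult2st2 overlapped, at 602 ± 254 in mutants and 254 ± 93.6 in controls (SD, n = 3 each).

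The sterol 27-hydroxylase gene cyp27a1.1 was the single member with the sign of cyp46a1.2 at an unadjusted p under 0.05. It had 131, 114 and 249 normalized counts in il7 mutants 1, 2 and 3, against 231, 325 and 404 in controls 1, 2 and 3, so il7 mutant 3 lay above control 1. Its log2 difference was −1.01 (SE 0.41, limma adjusted p = 1.00). CYP7A1, which starts bile acid synthesis in the liver, ran from 724 to 19297 in mutants and from 648 to 74788 in controls, and its highest library was control 3. HSD3B7, a later enzyme of that pathway, stood at 3563 ± 564 in mutants and 6441 ± 3967 in controls (SD, n = 3 each), where control 3 alone held 10940.

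The list of liver X receptor targets and cholesterol efflux genes was mixed, with 15 of 26 fitted genes positive, 11 negative and a median of 0.07. At an unadjusted p under 0.05, where the genome held 1.36% higher and 2.12% lower, 3 members were higher and none lower. These were apoa1b, an apolipoprotein of high-density lipoprotein, with a log2 difference of 3.04 (SE 0.94), nr1h5, a nuclear receptor of the farnesoid X receptor group, with 0.84 (SE 0.31), and abca1b, a cholesterol exporter, with 0.81 (SE 0.33). The apoa1b counts were 189, 1492 and 1475 in il7 mutants 1, 2 and 3, against 85.9, 44.5 and 190 in controls 1, 2 and 3, so il7 mutant 1 was level with control 3. The liver fibrinogen gene FGG had a like order, at 10.6, 202 and 156 in il7 mutants 1, 2 and 3, against 5.51, 2.02 and 12.2 in controls 1, 2 and 3. Not every liver marker shared this order. FGB, another fibrinogen gene, had 724, 729 and 1416 in il7 mutants 1, 2 and 3, against 272, 748 and 1366 in controls 1, 2 and 3. TTR had a log2 difference of −0.21 (SE 0.57). The part of liver transcripts in apoa1b was not tested. FGG, FGB and TTR were named after their values were seen. The log2 difference of apoa1b was 4.03 without il7 mutant 1 and 2.54 without il7 mutant 2. Groups did not overlap in 2 higher genes and 1 lower gene of this list, against 3.51% and 4.44% of all genes fitted. The higher ones were nr1h5 and LCAT. The nr1h5 counts were 2423, 1425 and 2012 in il7 mutants 1, 2 and 3, against 773, 1264 and 1229 in controls 1, 2 and 3. LCAT had means of 58.2 in mutants and 35.4 in controls. The lower one, NPC1, had means of 3860 in mutants and 4359 in controls. LCAT and NPC1 were named after their values were seen. SREBF1, the relative of srebf2 that drives fatty acid synthesis, and its target FASN had 1.04 (SE 0.43) and 1.19 (SE 0.76), and leaving out single libraries put FASN at 0.62 (il7 mutant 3), 0.68 (control 2) and 1.86 (il7 mutant 2). The lysosomal sterol carrier gene NPC2 (ENSDARG00000090912) had 0.03 (SE 0.20). The receptor gene NR1H3 itself had 1680 normalized counts in mutants and 1627 in controls as means, a log2 difference of 0.04 (SE 0.22); it was named after its values were seen.

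Genes for partner proteins of P450 enzymes had a median of −0.18, with 4 of 11 fitted genes positive and 7 negative, and none at an unadjusted p under 0.05. Electrons for microsomal P450 enzymes such as cholesterol 24-hydroxylase come from the reductase POR. Of the 2 features named POR, ENSDARG00000055092 stood at 4587 ± 354 in mutants and 3183 ± 1027 in controls (SD, n = 3 each). The other, ENSDARG00000059035, stood at 10825 ± 1439 in mutants and 8445 ± 5169 in controls (SD, n = 3 each). In this list only ENSDARG00000055092 had groups that did not overlap, with higher mutants, as in 3.51% of all genes fitted. CYB5R3, a cytochrome b5 reductase, had a log2 difference of −0.22 (SE 0.21), the outer membrane cytochrome cyb5b 0.83 (SE 0.81), the mitochondrial electron carrier fdx1 0.77 (SE 1.29) and the heme-binding membrane protein gene PGRMC1 −0.19 (SE 0.32). Single libraries weighed on cyb5b, whose difference was 0.20 without control 1 and 1.53 without control 3.

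Marker lists of the cell types in the tissue are given as summed normalized counts, which a few abundant genes dominate, and as median log2 differences. Their part in the values of the cyp46a1 genes was not tested. Neuron markers, read because the mammalian enzyme is neuronal, matched 16 features, of which 12 were fitted. They summed to 2626 to 3620 normalized counts in mutants and 1864 to 3676 in controls, with nefla at 0. Their median log2 difference was 0.32. Macrophage markers (14 of 19 features fitted, 5 at 0 in all libraries) summed to 55482 to 73323 in mutants and 64954 to 88949 in controls, with a median of −0.13. In 1 macrophage marker the groups did not overlap, with lower mutants. Neutrophil markers (13 fitted) summed to 200893 to 366025 in mutants and 193736 to 292560 in controls, with a median of −0.06. At an unadjusted p under 0.05, 1 was lower and 0 higher. This was CEBPA, at 6319 ± 769 in mutants and 14647 ± 654 in controls (SD, n = 3 each). Its log2 difference was −1.22 (SE 0.18, limma adjusted p = 0.556), and it was named after its values were seen. Groups did not overlap in 1 higher and 1 lower neutrophil marker. Lymphocyte markers (18 of 19 fitted) summed to 8346 to 12989 in mutants and 9925 to 15390 in controls, with a median of −0.26. At an unadjusted p under 0.05, 1 lymphocyte marker was higher and 0 lower, and groups did not overlap in 1 higher and 2 lower ones. Erythroid markers (10 of 11 fitted, klf1 at 0) summed to 187107 to 496652 in mutants and 71450 to 360361 in controls, with a median of 0.58. The interrenal list, which holds the steroid-making and chromaffin cells of the fish kidney, summed to 2263 to 4180 in mutants and 1901 to 6498 in controls, with a median of 0.04. The kidney tubule list, with a median of 0.07, summed to 237799 to 395012 in mutants and 136629 to 416002 in controls, and the endothelial and stroma list, with a median of 0.23, to 96227 to 136298 in mutants and 64557 to 120637 in controls. Of the endothelial and stroma genes, 2 were higher and 0 lower at an unadjusted p under 0.05. Groups did not overlap, with higher mutants, in 2 endothelial and stroma genes and 1 kidney tubule gene. Among these marker lists, the medians farthest from 0 were those of muscle and of liver and pancreas, followed by the erythroid list. Liver and pancreas markers, with 19 of 22 fitted genes positive and a median of 1.05, summed to 27473 to 55330 in mutants and 10554 to 88610 in controls. At an unadjusted p under 0.05, 4 of these were higher and 0 lower, and 2 of them, serpina1 and serpina1l, had groups that did not overlap. Over all genes fitted, 1.36% were higher and 2.12% lower at that threshold. Groups did not overlap in 3.51% of all genes fitted with higher mutants and in 4.44% with lower mutants. Muscle markers, with 10 of 11 positive and a median of 1.31, summed to 22675 to 191923 in mutants and 6310 to 98786 in controls. Oocyte markers, with 16 of 20 negative and a median of −0.57, summed to 4184 to 174061 in mutants and 2550 to 360462 in controls. Of the fitted erythroid markers 9 of 10 were positive, and of the fitted lymphocyte markers 15 of 18 were negative. Over all genes fitted, 54.1% were negative. The groups overlapped in the sums of all the marker lists.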

How the data were processed

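Per the labels' protocols, ribosomal RNA was depleted from total RNA of whole kidney marrow and stranded libraries were prepared. Per the submitters' processing notes the build was GRCz10, and DESeq2 1.14.1, featureCounts 1.5.2, STAR 2.5.3a and bcl2fastq 2.17.1.14 were used, with no roles or settings stated. The deposited signal is a normalized count per gene. Every value was a whole multiple (within 1e-06 of a read) of its column's smallest value above 0, which gave the reads; no count model was run on them. The authors' deposited table holds shrunken and unshrunken log2 fold changes, a p-value and an adjusted p-value, and a score that was not used. Symbols matched 26433 of 32267 features (81.9%).

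Genes with a mean of at least 10 normalized counts over the 6 libraries (20782) were compared on log2(normalized count + 1), which understates changes of low genes, with limma 3.58.1 in R 4.3.3 (variance trend, Benjamini-Hochberg adjustment at 0.05). Exact permutation tests used scipy 1.17.1. Groups and replicate numbers came from the titles. No 2 libraries of a group agreed within sampling noise (smallest chi-square per degree of freedom 90.8).

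The members and lists were chosen with earlier results of these data known. Named genes were the family, the 6 and 3 genes most like cyp46a1.2, in each sterol list the 4 with the smallest p and the 2 most highly read others, and the 2 neighbours with the widest difference. In simulated data for this comparison, 20782 genes were drawn at their observed spread, independently of each other. There limma found 0 of 67 true 2-fold changes, 10 of 67 true 4-fold ones and 36 of 66 true 16-fold ones. With the median spread for every gene it found 8, 58 and 66. It also called 1 unchanged gene at the observed spread and 6 at the median spread. Genes of the real libraries do not vary independently, as oocyte transcripts were high together in the oocyte-rich pair.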

Additional observations from a re-analysis of the deposited data

How the results depend on the processing

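Settings tried were pseudocounts of 0.5 and 5, no filter, a filter at a mean of 50, quantile normalization, no variance trend, array quality weights, a replicate block, each library left out, both oocyte-rich libraries left out and, chosen after seeing the data, scaling to equal totals and a model term for the oocyte-rich pair. The planned tests on recovered reads and TMM scaling were not run, since the values were treated as normalized. In all 17 alternatives limma called 0 genes, in the genome and in each sterol list, with a smallest adjusted p from 0.0634 to 0.816. Changes of the filter or variance trend, the replicate block and the oocyte-rich term could not move a log2 difference, only the calls. The log2 difference of cyp46a1.2, which was chosen for this difference, stayed between −2.06 and −1.81, and that of cyp46a1.3 between −1.31 and −0.45. With single libraries left out, that of cyp46a1.5 ran from −1.26 to −0.67 and the difference in the share of cyp46a1.2 from −32.3 to −22.9 percentage points.

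The sign turned in several results that passed no threshold, and the cause was not tested. For cyp46a1.1 the log2 difference was −0.10 with array quality weights and −0.19 without both oocyte-rich libraries, and ran from −0.55 to 0.51 with single libraries left out. The same range was −0.76 to 2.67 for CYP7A1, −0.08 to 0.16 for NPC2, −0.03 to 2.00 for fdx1, −0.45 to 0.05 for PGRMC1 and −0.47 to 0.08 for ccnk. Among genes that kept their sign but moved by over 1.5 times, the range was 0.83 to 1.74 for LSS, 0.82 to 1.77 for HMGCS1, 0.58 to 1.25 for IDI1, 0.97 to 2.5 for insig1, 0.64 to 2.08 for ldlrb, −1.06 to −0.22 for HSD3B7, 0.62 to 1.86 for FASN, 0.20 to 1.53 for cyb5b, 0.14 to 0.99 for POR (ENSDARG00000059035), 0.36 to 0.82 for POR (ENSDARG00000055092), −0.34 to −0.12 for CYB5R3 and 0.05 to 0.31 for si:dkey-60a16.1. It was 0.72 to 1.48 for SREBF1.

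The titles give same-numbered libraries only a number in common. Their deviations from the group means correlated at −0.511, −0.398 and 0.507. Those of the oocyte-rich pair, il7 mutant 2 and control 1, correlated at 0.732, and the deviations of each group cancel out. These correlations therefore cannot decide whether libraries of the same number shared a batch. With the replicate block limma called 0 genes, against 0 without it. Both groups hold the same numbers, so the block could not move a log2 difference. Those of cyp46a1.2 (−1.97) and cyp46a1.3 (−0.91) were therefore bound to stay the same. Not every library correlated best with its own number. Depth limits cyp46a1.5, with 3 to 14 reads per library.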
